A study of Mus musculus with 3 samples.

Results

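Named small nucleolar RNAs (snoRNAs) were followed in chromatin-associated RNA of mouse macrophages. They were taken as the genes with a transcript of type snoRNA whose symbol begins with Snora or Snord. The rule used names and transcript types and no measured value. It found 140 genes with 137 distinct symbols, 42 Snora genes of the H/ACA type and 98 Snord genes of the C/D type. They are part of 1507 genes of type snoRNA, and of 55450 annotated genes with a row in both kinds of table used here.

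The cells were bone marrow-derived macrophages of the C57BL/6J strain, primary cells grown from marrow and stimulated for 40 min with 100 ng/ml Lipid A, the part of bacterial lipopolysaccharide that Toll-like receptor 4 recognises. RNA of the chromatin fraction was sequenced as total RNA after depletion of ribosomal RNA in 1 group of 3 biological replicates, made from 1 µg (replicate 1), 250 ng (replicate 2) and 500 ng (replicate 3) of RNA. The replicates are separate biosamples that refer to 1 donor entry, so the spread between them may hold less than that between unrelated animals. Untreated cells were not analysed here. The report therefore compares the classes and genes within these libraries, and says nothing of what Lipid A changed.

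A snoRNA binds a fixed set of proteins and pairs with a target RNA, mostly ribosomal RNA, at the base to be modified. RNAs of the C/D type guide methylation of the ribose, and RNAs of the H/ACA type guide conversion of uridine to pseudouridine. A few members of both types serve cleavage of the ribosomal RNA precursor and not its modification. In mammals most snoRNAs are cut out of introns of host genes, many of which encode ribosomal proteins or are long noncoding RNAs. Their ends are then trimmed.

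The classes differ in short sequence elements, and these were searched in the annotated RNA, on its own strand. The C box TGATGA lay within the first 25 bases of 70 of 98 Snord RNAs and of 0 of 42 Snora RNAs. The D box CTGA lay within the last 15 bases of 92 of 98 Snord and 3 of 42 Snora RNAs. An ACA placed 3 bases from the 3′ end was found in 35 of 42 Snora and 0 of 98 Snord RNAs. Among 7941 other annotated transcripts of 60 to 240 bases, 3.85% had this C box, 9.92% the D box and 4.90% the ACA. The class names thus fit the letters of most members, and 68 of 98 Snord RNAs held both boxes. A member without an exact match may hold a variant of the element that was not searched.

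The H/ACA members with the most counts are shown first, in DNA letters and 5′ to 3′, with the ACA in capitals. Snora73a (chr4:132352775-132352979) and Snora73b (chr4:132352322-132352526) are copies of the RNA known as U17, which serves cleavage of the ribosomal RNA precursor. Both lie on the minus strand in an intron of Rcc1. They are identical at 198 of 205 aligned positions (96.6%), so how reads were split between these copies is uncertain. Snora31 (chr14:75847905-75848034, plus strand, intron of Tpt1) is shown because the tables gave it very different counts. All sequences and positions are those of the GENCODE M21 annotation of mm10.

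Snora73a: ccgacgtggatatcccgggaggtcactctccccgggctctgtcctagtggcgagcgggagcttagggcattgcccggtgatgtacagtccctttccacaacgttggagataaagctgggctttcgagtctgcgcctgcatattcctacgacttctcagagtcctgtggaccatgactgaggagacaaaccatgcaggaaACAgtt
Snora73b: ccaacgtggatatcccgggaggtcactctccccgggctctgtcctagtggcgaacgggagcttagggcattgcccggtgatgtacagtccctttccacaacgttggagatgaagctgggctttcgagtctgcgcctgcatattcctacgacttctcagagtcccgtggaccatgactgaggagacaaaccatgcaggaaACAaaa
Snora31: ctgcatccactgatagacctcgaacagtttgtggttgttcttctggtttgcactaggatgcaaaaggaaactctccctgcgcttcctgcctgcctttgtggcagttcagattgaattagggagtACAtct

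The C/D members that carry the results are shown with the C box and D box in capitals where the exact letters were found. Snord17 (chr2:144265979-144266216, minus strand, intron of Snx5) is the longest member. Snord15b (chr7:99479563-99479707) and Snord15a (chr7:99482785-99482932) share the host Rps3 on the minus strand and are 64.5% identical. Snord22 (chr19:8725866-8725991, plus strand, in Snhg1) is followed by Snord21 (chr5:107904555-107904648, plus strand, in Rpl5), the short member with the most counts. Snord118 (chr11:69073427-69073561, plus strand, with no host on its strand) is the U8 RNA, which serves processing of large-subunit ribosomal RNA. Snord14c (chr9:40803583-40803668) and Snord14d (chr9:40803995-40804080), copies of the U14 RNA in Hspa8 on the plus strand, are identical at 84 of 86 positions. In Snord22 and Snord118 only the D box matched in its window.

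Snord17: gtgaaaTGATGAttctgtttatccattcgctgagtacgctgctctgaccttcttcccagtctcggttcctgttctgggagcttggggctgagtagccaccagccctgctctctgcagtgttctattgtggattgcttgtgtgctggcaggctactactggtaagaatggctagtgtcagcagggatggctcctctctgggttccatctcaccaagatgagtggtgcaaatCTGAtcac
Snord15b: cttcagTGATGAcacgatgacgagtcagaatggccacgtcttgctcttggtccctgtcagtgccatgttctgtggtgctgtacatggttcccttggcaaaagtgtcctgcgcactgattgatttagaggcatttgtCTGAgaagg
Snord15a: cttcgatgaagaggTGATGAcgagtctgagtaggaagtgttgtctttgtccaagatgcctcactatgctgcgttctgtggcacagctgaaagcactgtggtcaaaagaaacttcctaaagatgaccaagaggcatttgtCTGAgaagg
Snord22: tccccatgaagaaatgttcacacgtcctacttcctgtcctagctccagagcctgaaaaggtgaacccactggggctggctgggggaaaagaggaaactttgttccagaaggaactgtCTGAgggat
Snord21: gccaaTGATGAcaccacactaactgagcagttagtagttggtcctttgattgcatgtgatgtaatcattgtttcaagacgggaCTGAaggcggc
Snord118: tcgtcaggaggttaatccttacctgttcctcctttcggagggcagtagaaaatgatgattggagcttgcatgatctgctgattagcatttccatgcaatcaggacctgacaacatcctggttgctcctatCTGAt
Snord14c: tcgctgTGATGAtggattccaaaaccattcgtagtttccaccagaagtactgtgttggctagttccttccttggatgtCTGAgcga
Snord14d: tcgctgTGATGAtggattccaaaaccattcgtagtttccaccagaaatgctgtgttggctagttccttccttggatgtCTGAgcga

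The authors deposited counts of each library in forms that differ in how reads were assigned. The est_counts of the alignment-free table were derived from the reads themselves. The expected_count of the gene table was derived from alignments to the transcriptome. Both are estimates, because reads that match several transcripts are divided between them. Annotated genes and transcripts held 19609758, 31545797 and 30459548 est_counts and 12532864, 18228103 and 18040938 expected counts in replicates 1, 2 and 3. Named snoRNAs made up 0.0751%, 0.103% and 0.0936% of the est_counts and 0.0915%, 0.127% and 0.111% of the expected counts. A noncoding transcript, Gm26917, took 10.9%, 20.2% and 17.8% of the est_counts, which bears on all values scaled to the library total. The spread between libraries is also given with a scaling that is less sensitive to it. Shares and class differences are given by library totals only. All 8 macrophage markers had a TPM (abundance scaled for transcript length and library depth) of at least 1 in every library. Of the markers of other cells, Cd3e, Cd3d, Ly6g, Elane and Hbb-bs had a TPM of 0 in every library, although the alignment-free table gave Cd3d 412, 733 and 808 est_counts. The highest were Alas2 of the erythroid list, with a TPM of 3.99, 3.21 and 2.94, and Cd4 of the T cell list, with 2.50, 4.28 and 2.11.

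A handful of RNAs held most counts of each class. Snora73b, Snora73a and Snora74a together held 82.2%, 82.4% and 81.6% of the Snora est_counts in replicates 1, 2 and 3. Snord17, Snord15b and Snord22 held 78.1%, 72.9% and 75.9% of the Snord est_counts. Both shares changed little between libraries.

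Snora73b had 1692, 4538 and 3551 est_counts in replicates 1, 2 and 3, and Snora73a had 1215, 5432 and 2943. The copy with more reads was Snora73b in replicates 1 and 3 and Snora73a in replicate 2, where the ratio of Snora73a to Snora73b was 1.20 against 0.72 and 0.83. The expected counts gave the same order, with ratios of 0.70, 1.14 and 0.80. Snora74a, known as U19, had 864, 1383 and 1407 est_counts. As log2 CPM (counts scaled to the library total) of est_counts its values had an SD of 0.04 over the 3 libraries, and of 0.14 with TMM scaling, described below.

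Snord17 had 3401, 6531 and 7117 est_counts and Snord15b 3635, 4107 and 4400. Snord15b passed Snord17 in replicate 1 and lay below it in the other libraries. Snord22 had 878, 3065 and 2783 est_counts. Snord15a, from the same host as Snord15b, had 667, 1286 and 1138 est_counts. Per length, Snord15b stood 5.56, 3.26 and 3.95 times above Snord15a.

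Levels of different genes are compared per kb of annotated length, as CPM of est_counts per kb. Snord15b led with 1278, 898 and 996, and Snord17 followed with 729, 869.9 and 982. Snord22 (355, 771 and 725), Snora73b (421, 702 and 569) and Snora73a (302, 839.9 and 471) came next and overlapped one another. Snord21, Snord15a and Snora74a followed. In this order the range of each member over the libraries overlapped that of the one before it. Within libraries, Snord15b stood above Snord17 and Snord17 above Snord22 in 3 of 3. Snord89 (86.2, 74.9 and 57.3), from an intron of Gm15832, lay below all of these in every library.

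**Figure D1:**
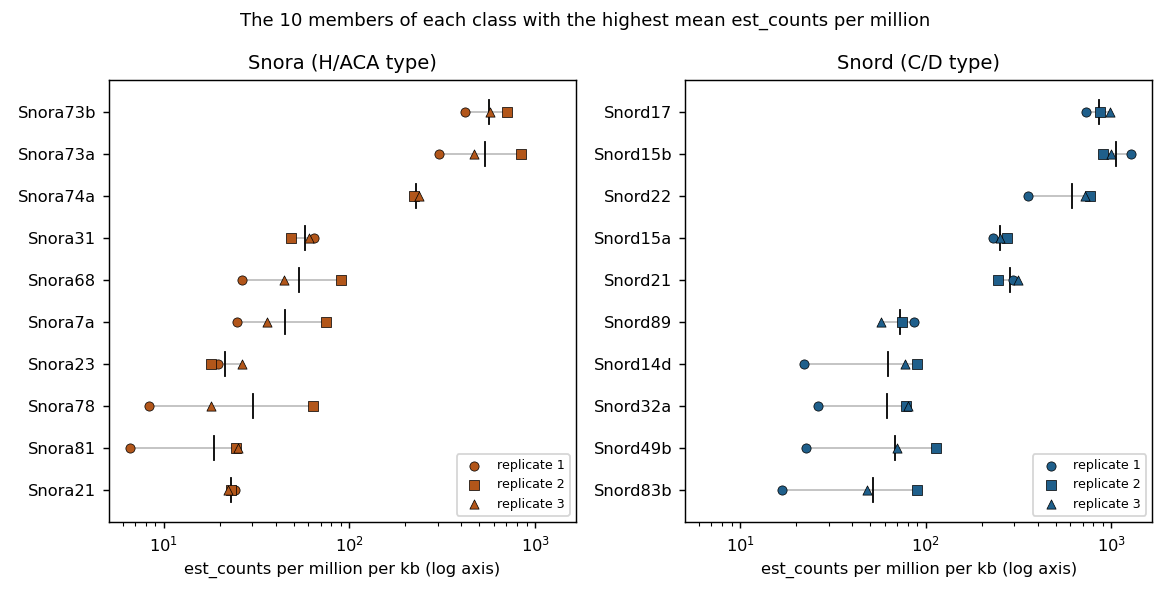
Each row is a member, and the x axis gives CPM of est_counts per kb of annotated length on a log scale, with 1 symbol per library, a grey line over their range and a black tick at the mean (n = 3). Snord15b and Snord17 lie furthest right. The replicate 1 circle stands left of the other symbols for many members, such as Snora78, Snora81, Snord14d, Snord32a, Snord49b, Snord83b, Snora73a and Snord22. For Snora31, Snord15b and Snord89 it stands right of them.

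Outside these leaders most members had few reads. At least 10 est_counts in every library were found for 25 of 42 Snora (59.5%) and 31 of 98 Snord genes (31.6%), together 56 of 140 (40.0%). Over all 55450 genes the same was true of 38.6%, so the members as a whole lay close to the background. Of the 1367 other genes of type snoRNA, whose symbols begin otherwise, 119 (8.71%) reached this level. At the other end, 2 Snora and 30 Snord genes were listed at 0 est_counts in every library. Of the 30 Snord genes, 19 lie in introns and 11 inside an exon of a host transcript, with which reads can be divided. A count of 0 allows up to 3 counts, or a CPM of 0.153, 0.0951 and 0.0985 in replicates 1, 2 and 3.

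The expected counts gave another picture. At least 10 expected counts in every library were found for 9 of 42 Snora (21.4%) and 4 of 98 Snord genes (4.08%), against 23.0% of all genes. Of the 140 members 104 had 0 expected counts in every library, 11 Snora and 93 Snord genes. These 93 Snord genes are the ones of 111 bases or less, and the shortest member with any expected count was Snora26 with 121 bases. Among other annotated genes of 60 to 120 bases, 1390 of 4059 had at least 1 est_count in some library and 12 of 4059 (0.296%) at least 1 expected count. The gene table gave all 93 an effective length of 0, as it did Snora26, which had 24.99, 66.99 and 70.99 expected counts. The 0 of the short members is reported as a listed value and not as an absence. The labels give the libraries a size range of 250-400, without a unit, and every member is shorter than 250 bases.

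**Figure D2:**
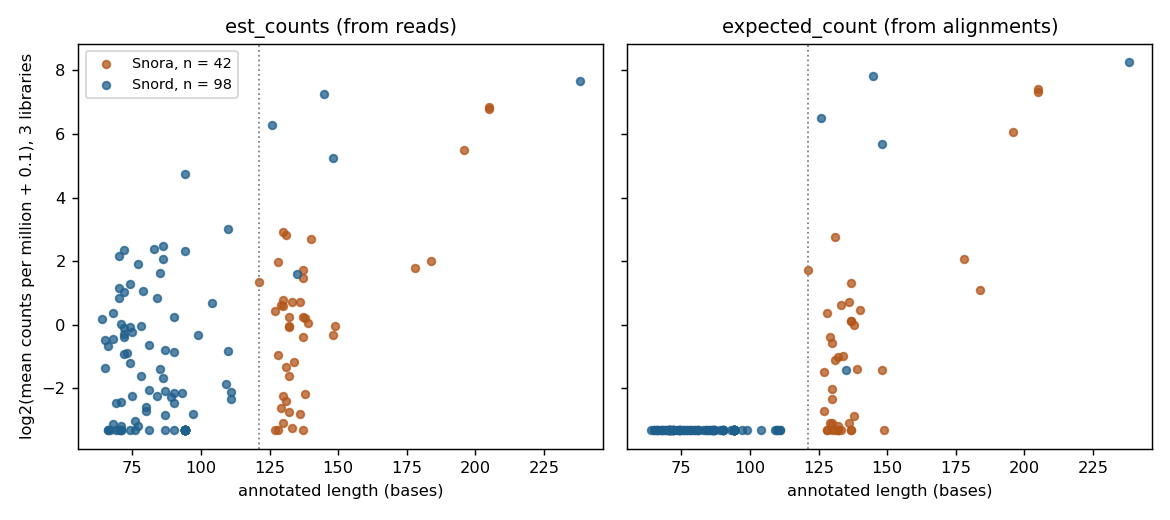
Points are the 140 members, with annotated length in bases on the x axis and log2 of the mean CPM plus 0.1 on the y axis, from est_counts on the left and expected_count on the right. The dotted line marks 121 bases, and to its left all Snord points of the right panel sit at the bottom, where the count is 0.

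Snora genes had at least 1 est_count more often than Snord genes. At least 1 est_count was found for 76.2%, 85.7% and 90.5% of Snora genes and for 57.1%, 66.3% and 62.2% of Snord genes in replicates 1, 2 and 3. The difference was 22.2 ± 5.21 percentage points (SD, n = 3 libraries), and 9.23 points without the 17 Snord116 genes, when Snord detection was 74.9% in place of 61.9%. With expected counts 59.5% ± 6.30 of Snora and 5.10% of Snord genes were detected, a difference of 54.4 ± 6.30 points. It follows the length limit above, because 93 of 98 Snord genes had no expected count at any level. The median Snora gene lay 1.93 ± 0.12 above the median Snord gene in log2(CPM + 0.1) of est_counts, and 1.76 ± 0.12 above it per kb. The size depends on the members near 0, being 0.71 with a pseudocount of 1 and 0.61 among members with at least 1 est_count in every library. In expected counts the difference of medians was 1.63, but the Snord median was a count of 0 in every library, so the pseudocount set its size (0.28 with a pseudocount of 1).

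The order turned round for shares of the library, which the leading genes set. Snora genes held 0.0234%, 0.0437% and 0.0318% of the est_counts, and Snord genes 0.0517%, 0.0596% and 0.0618%. The difference of Snora minus Snord was -0.0247 ± 0.0077 percentage points of est_counts and -0.0247 ± 0.0128 points of expected counts. All 6 class differences had the same sign in 3 of 3 libraries. The exact two-sided sign-flip permutation test gave p = 0.25 for each, and 0.25 after Benjamini-Hochberg adjustment over the 6, the smallest value that 3 libraries allow.

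Class and length cannot be told apart over most of the range, since all 42 Snora genes have at least 121 bases and 93 of 98 Snord genes have at most 111. Among members of 100 to 150 bases, 37 Snora and 10 Snord genes, the median difference in est_counts reversed to -1.21. The share with at least 1 est_count was then 14.7 points lower in Snora genes (82.0% against 96.7%). The 5 Snord genes of at least 121 bases, Snord17, Snord15b, Snord22, Snord15a and Snord118, held the larger part of the Snord counts in both tables. In est_counts the higher detection of Snora genes thus held over all members and reversed in both sets limited by length, these and members of at least 121 bases.

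**Figure D3:**
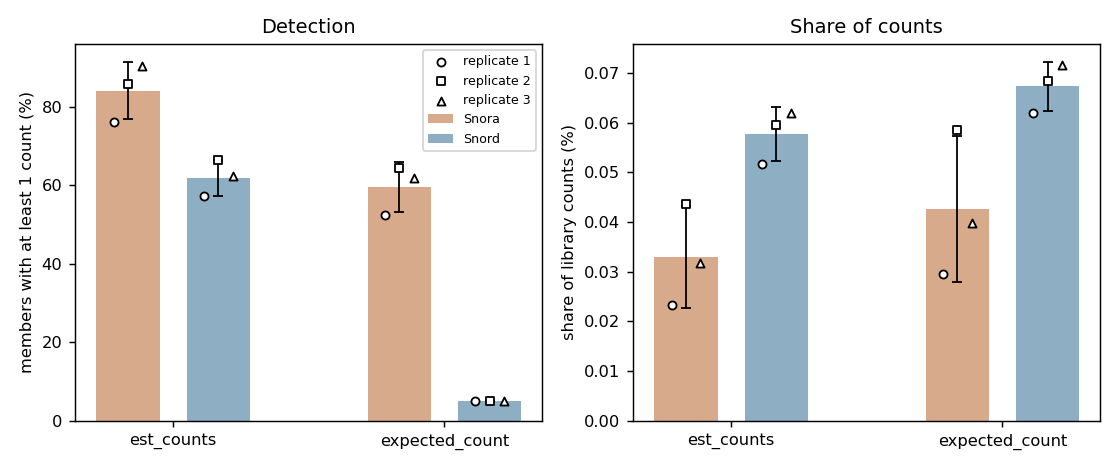
Bars are means over 3 libraries with SD as error bars and 1 symbol per library, in percent of members with at least 1 count (left) and percent of all library counts (right), for Snora and Snord genes in each table. Snora bars are the higher ones on the left (84.1% against 61.9% in est_counts) and the lower ones on the right.

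Among short C/D members, est_counts is the table with values. Snord21, from an Rpl5 intron that some transcripts retain, had 542, 728 and 895 est_counts and 0 expected counts. Snord89 had 186, 260 and 192 est_counts and 0 expected counts. No fold is given, since the other table lists every member of this length at 0. Snord104, which has no host on its strand, had 82, 117 and 161 est_counts.

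The assignment differed by gene also above 121 bases. Snora31 had 165, 199 and 239 est_counts and 2, 4 and 1 expected counts. Snora68, 1 base longer, had 67.4, 371 and 177 est_counts and 28.8, 242 and 78.7 expected counts. The expected count was thus 1.21% ± 0.80 of the est_counts for Snora31 and 50.8% ± 12.5 for Snora68 (SD, n = 3). Snora36b, Snora62, Snora41 and Snora2b had at least 10 est_counts in every library and 0 expected counts. Among the 30 members of at least 121 bases with at least 10 est_counts in every library, the largest mean ratios were those of Snora74a (89.8%), Snord17 (89.5%), Snord15b (89.1%) and Snora73b (88.9%).

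A feature that the rule did not use is where a member lies in its host. Of the 140 members, 77 lie in a host but whole in none of its exons, and are called intron members. Another 56 lie inside an exon of some host transcript, mostly one annotated as retained intron, and 7 have no host on their strand. Among members of at least 121 bases with at least 10 est_counts in every library, the 15 intron members had a median ratio of expected_count to est_counts of 18.8% and a range from 0 to 89.5%. The 12 members inside an exon had a median of 56.9% and a range from 12.7% to 89.8%. A ratio under 10% was found for 6 of the 15 and 0 of the 12. Among those of up to 150 bases, the median was 1.21% for 11 intron members (range 0 to 82.6%) and 53.4% for 10 exon members (12.7% to 89.1%). A ratio under 10% was then found for 6 of the 11 and 0 of the 10. The ranges of the groups overlapped widely with and without this length limit, and the split by place was made after the values were seen. The whole sequence of each of those 12 also stands in another annotated transcript, so their reads can be divided with the host. Intron members can share sequence too. Of their stretches of 31 bases, Snora5c shared 100% and Snora73a 85.1% with other transcripts, and Snora31 and Snord17 shared 0%.

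**Figure D4:**
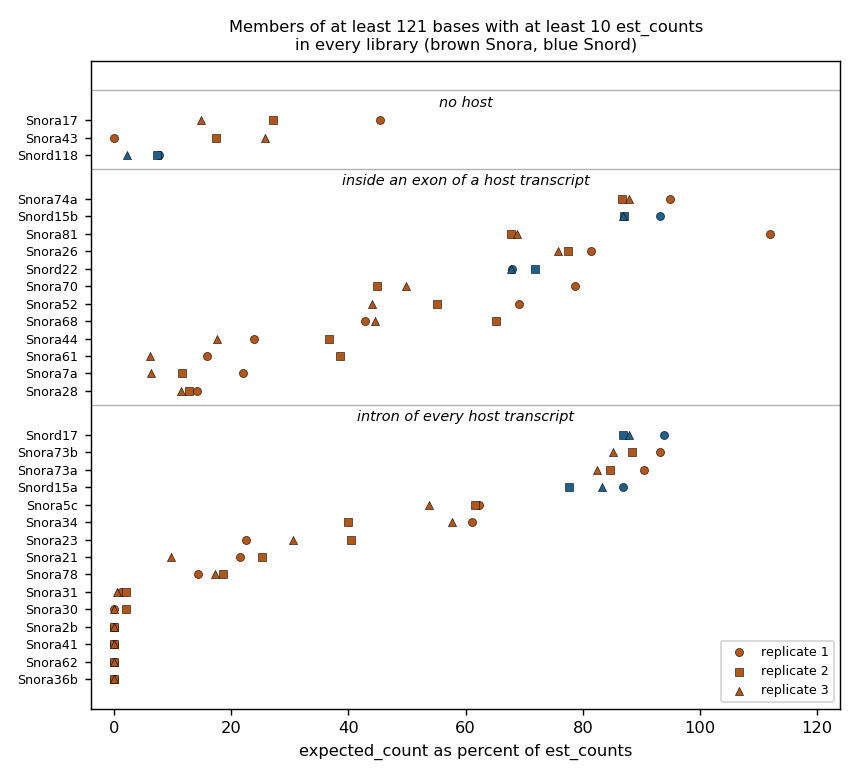
Rows are the 30 members of at least 121 bases with at least 10 est_counts in every library, grouped by their place in the host, and the x axis gives expected_count as percent of est_counts, with 1 symbol per library. The lower block, introns, runs from 0 to 89.5% (means) and holds the 4 members at 0, and the middle block, exons, starts at 12.7%.

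The tables were also compared in 1 model over all genes. After TMM scaling, which sets the libraries to a common typical gene, edgeR's quasi-likelihood test with a library term found 10397 of 20964 genes (49.6%) higher in est_counts and 6281 (30.0%) lower at an adjusted p under 0.05. The median gene lay 0.30 (log2) higher, so a gene near that value did not move against the rest. Of the members 53 could be tested, 24 Snora and 29 Snord genes, and 38 were higher (13 Snora and 25 Snord) and 9 lower. Of the 38, 27 had 0 expected counts in every library and entered the test through est_counts alone, so their call follows from the filter. Because both tables come from the same reads, these p-values describe the assignment and not the cells.

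The 9 members lower in est_counts were Snora74a, Snord17, Snord15b, Snora73b, Snora73a, Snord15a, Snora26, Snora81 and Snord22. Snora74a differed by -0.80 ± 0.08 (log2, SE, adjusted p = 3.67e-17, edgeR). Snord17 differed by -0.80 ± 0.07 (adjusted p = 1.27e-18, edgeR) and Snora73a by -0.73 ± 0.07 (adjusted p = 1.89e-16, edgeR). In raw counts each of the 9 except Snora81 in replicate 1 had more est_counts than expected counts, since the alignment-free table assigned more reads in all. Of the members with some expected counts, Snora7a was higher in est_counts by 2.18 (adjusted p = 9.80e-23, edgeR) and Snord118 by 3.24 (adjusted p = 1.93e-20, edgeR). Snord118 had 52, 95 and 95 est_counts and 4, 7 and 2 expected counts. The calls of the 9 end when edgeR tests for a change of more than 2-fold, and 4 of them end without the library term, those of Snora73a (adjusted p = 0.23, edgeR), Snora26 (0.21), Snora81 (0.44) and Snord22 (0.40). The call of Snora81 also ends without replicate 2 (adjusted p = 0.06, edgeR), with library totals (0.06) and with DESeq2 (0.07), and that of Snora26 with DESeq2 (0.06).

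Members from 1 host did not stand at 1 level. A total of 24 hosts held 2 or more members, 74 in all. In Rpl13a, a ribosomal protein gene with 4 C/D members, Snord32a had 26.4, 78.7 and 80.7 CPM of est_counts per kb. Snord34 had 13.1, 44.4 and 34.7, Snord33 14.7, 18.2 and 27.2, and Snord35a 7.37, 15.9 and 12.8. Snord32a was the highest and Snord35a the lowest of the 4 in each library. Of the 4, only Snord33 stands whole in other annotated transcripts.

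Gas5, a long noncoding RNA gene known for its many C/D snoRNAs, held 4 members. Snord47 had 43.4, 150 and 122 est_counts, while Snord78 was listed at 0 and the genes named Snord80 had at most 6.66 est_counts. Each of these 4 members stands whole in at least 1 other annotated transcript, Snord78 in 6, so their reads can be divided with those. Gas5 itself had a TPM of 81.0, 73.2 and 67.0. Snord44, Snord74 to Snord77, Snord79 and Snord81 were not among the genes that the rule found. In Hspa8, Snord14d and Snord14c had 37.4 and 40.5 est_counts in replicate 1, 242 and 168 in replicate 2, and 202 and 149 in replicate 3. Snord14e had 0, 8.12 and 3.80, and Snord14a, in Rps13, was listed at 0. These Snord14 genes also stand whole in other annotated transcripts, Snord14a in 4 and each of the rest in 1.

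In 3 of the 4 hosts with members of both classes the highest C/D member stood above the highest H/ACA member. In Snhg12, Snord99 stood at 20.3, 43.9 and 31.1 CPM of est_counts per kb, above Snora61 (4.68, 16.4 and 11.6) and Snora44 (6.52, 15.4 and 11.5). In Ncl, which encodes nucleolin, Snord82 had 20, 69 and 57 est_counts and Snora75 0.34, 0 and 0. In Rps12, Snord100 had 4.81, 38.3 and 34.0 and Snora33 0, 2.25 and 3.73. The other order was found in Eif4a2, which encodes a translation initiation factor, where Snora81 had 22.9, 137 and 135 est_counts and Snord2 was listed at 0. Of the members named in these 4 hosts, all but Snord82 stand whole in other annotated transcripts, so their reads can be divided with those. Across members within a library, Spearman's rho between est_counts and the TPM of the host was 0.30, 0.50 and 0.46 over 95 Snord genes and 0.05, -0.06 and 0.02 over 38 Snora genes. These points share a library, and members of 1 host share its value. Of the 95 Snord points, 17 are Snord116 genes with 0 est_counts and the same host, Snhg14, and rho without them was not computed.

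The imprinted region of chromosome 7, which is known for C/D snoRNAs made in neurons, was listed at 0. Its 19 members, Snord64, Snord107 and 17 Snord116 genes, had 0 est_counts and 0 expected counts in every library. The 17 Snord116 genes have only 4 distinct sequences. The sequence of Snord116l1, shared by most of them, stands whole in 30 other annotated transcripts, more than the 17 members. Reads of identical sequences could not be told apart, so for the genes that share it the listed 0 is theirs and not that of the sequence. Snord116l9, Snord116l12 and Snord116l14 stand whole in no other transcript. They shared 75%, 67.19% and 81.25% of their stretches of 31 bases with others. The host of the Snord116 genes, Snhg14, had a TPM of 6.38, 1.99 and 3.77. Without the Snord116 genes the median difference between Snora and Snord est_counts was 1.14 in place of 1.93 on the log2 scale.

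The libraries differed for the members more than for most genes. Among members with at least 10 est_counts in every library, the median SD of log2 CPM of est_counts over the 3 libraries was 0.54 for 25 Snora and 0.37 for 31 Snord genes, against 0.29 for all 21424 such genes. The lowest of the 3 values was that of replicate 1 for 37 of 56 members (66.1%), and for 22.4% of all genes. The highest was that of replicate 2 for 29 of 56 (51.8%), and for 21.7% of all genes. With TMM scaling the median SD was 0.64, 0.46 and 0.26 for Snora, Snord and all genes. Members and all genes were not matched by number of counts, and the part of counting error in these differences was not tested.

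Snora78, in an intron of Snhg9, had the widest spread, with 21, 258 and 70 est_counts. Snord83b, from an intron of the ribosomal protein gene Rpl3, had 31, 266 and 139. Snord49b had 32, 258 and 153, and Snora81 an SD of 1.10 (log2). Among the members with the smallest SDs were Snora21 (0.06, and 0.09 with TMM scaling) and Snord37 (0.06, and 0.11 with TMM scaling). Which member was lowest depends on the scaling, Snora74a by library totals and Snora30 (0.07) by TMM. Replicate 1 was made from the most RNA, had the fewest counts and the lowest share of Gm26917. Its summed TPM of the 3 fibroblast markers was 0, against 1.27 and 1.03 in replicates 2 and 3. In replicates 1, 2 and 3 the alignment-free table gave Col1a1 129.8, 321.1 and 326.3 est_counts. It gave Col1a2 15.51, 180.9 and 157.5, and Dcn 10.27, 39.44 and 46.09. The part of these features of replicate 1 in the spread of the members was not tested.

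**Figure D5:**
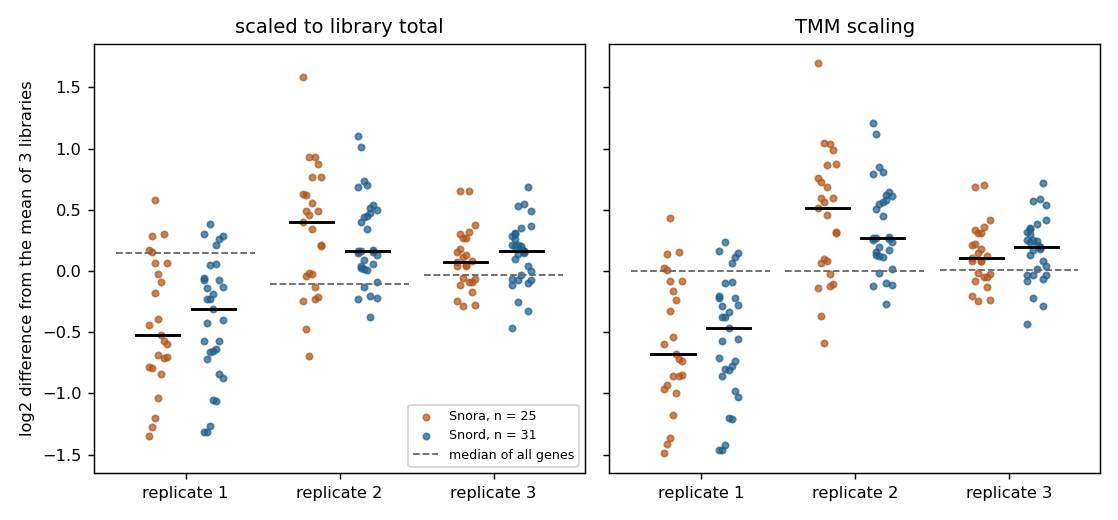
Each point is a member with at least 10 est_counts in every library, and the y axis gives its log2 difference from its own mean over the 3 libraries, scaled to the library total (left) or by TMM (right). Black bars are class medians and dashed lines the median of all genes, and in replicate 1 the class medians (-0.53 for Snora and -0.31 for Snord at left) lie below the dashed line at 0.15.

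The proteins that bind the RNAs were taken from a list of 19 genes. Of the H/ACA core, the pseudouridine synthase Dkc1 had a TPM of 5.84, 2.06 and 3.34, Nhp2 12.5, 6.21 and 6.88, Gar1 2.08, 1.10 and 1.24, and Nop10 0.65, 0.05 and 0.59. Nop10 rests on 8, 1 and 11 expected counts. Of the C/D core, Nop56 had a TPM of 15.5, 17.7 and 14.5, Nop58 11.0, 8.62 and 11.7, the methyltransferase Fbl 7.14, 6.01 and 5.59, and Snu13 2.83, 1.18 and 2.61. Of 11 assembly factors, 5 had a TPM of at least 1 in every library, led by the cap methyltransferase Tgs1 with 15.3, 7.34 and 10.1.

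Between the tables, 18 of the 19 genes could be tested and 7 were higher and 4 lower in est_counts, beside the 49.6% and 30.0% of all genes. Nop58 (0.73, adjusted p = 1.42e-12, edgeR) and Snu13 (1.31, adjusted p = 1.93e-15, edgeR) were higher. Nop56 (-0.70, adjusted p = 7.65e-12, edgeR) and Fbl (-0.66, adjusted p = 1.91e-07, edgeR) were lower. Nop56 and Nop58, themselves snoRNA hosts, thus differed in opposite directions.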

How the data were processed

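Total RNA sequencing of chromatin-associated RNA gave 3 libraries of 1 group. Expected counts (estimated reads per gene) and TPM were deposited by the authors in gene tables derived from transcriptome alignments. The est_counts, also estimated counts, were deposited by the authors in transcript tables derived directly from the reads. Values refer to mm10 and annotation M21, per the deposited notes. No source used here names the programs or how strand was used, so members that overlap a gene on the other strand are uncertain (10 members, Snora73a and Snora73b among them). The est_counts of a gene's transcripts were summed, and both kinds of count were rounded for edgeR and DESeq2. CPM values used the totals of 55450 annotated genes.

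Tables were compared with edgeR 4.0.16 (R 4.3.3; filterByExpr with a minimum of 10, TMM, quasi-likelihood test, a library term because each library has both tables, Benjamini-Hochberg adjustment over all genes). Code was tested on simulated data. Class differences used log2(CPM + 0.1) and an exact sign-flip test over the libraries. Alternatives were library totals, DESeq2 1.42.0, no filter, a 2-fold band, no library term, other pseudocounts and subsets, and each library left out. Floors are 3 counts per library and cover counting error only. Sequences come from the annotation's transcripts.

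Named genes were the 10 of each class with the most est_counts CPM, the 5 of each with the most expected counts, the 3 of each class and direction with the largest table differences, and listed groups. Other genes were named after their values were seen. Members and lists were chosen with earlier results of these data known.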

Additional observations from a re-analysis of the deposited data

How the results depend on the processing

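The 6 class differences kept their sign when each library was left out and in most other settings. Those that reversed did so in subsets. At 100 to 150 bases the median difference in est_counts was -1.21 and the detection difference -14.7 points. At 121 bases or more, a subset chosen after seeing the data, these were -6.21 and -15.9, and with expected counts -8.09 and -40.5. Among members with at least 1 expected count in every library, 22 Snora and 5 Snord genes, the median difference was -6.11. The sign-flip test cannot pass the threshold in any setting.

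The 38 members higher in est_counts became 76 without the low-count filter. The 9 lower members became 5 without the replicate block, the term that pairs the tables of a library, and 33 were then higher. They became 0 with edgeR's test for more than 2-fold, where 34 members in all had an unadjusted p under 0.05, and DESeq2 called 7. With library totals in place of TMM, 38 members were higher and 8 lower, while all genes moved to 11866 higher and 4098 lower and their median from 0.30 to 0.52. Leaving out a library gave 36 to 50 higher and 8 or 9 lower. The spread with TMM stayed within the interquartile range of the members. Depth limits all members below about 10 counts.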

Other observations

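Snora43 has overlapping annotated genes on the minus strand (chr2:26637847-26637985 and chr2:26637848-26637974), neither with a host on that strand. The longer had 10, 39 and 33 est_counts and 0, 6.76 and 8.48 expected counts. Inside it, the shorter had 0 est_counts in every library and 0, 0.24 and 2.52 expected counts. How reads were split between these entries is uncertain. Snora16a likewise has overlapping annotated genes in Snhg12 (chr4:132309465-132309600 and chr4:132309464-132309600), which had at most 2.03 est_counts. Genes of type scaRNA, relatives that act in Cajal bodies, held 0.0710%, 0.159% and 0.0987% of the est_counts, and 17 of 51 had at least 10 est_counts in every library.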
